A study of Mus musculus with 8 samples.

Results

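Cell adhesion genes of mouse embryonic stem cells are described here: the E-cadherin gene Cdh1, Epcam, the integrin subunit genes Itga5, Itga6, Itgav, Itgb1 and Itgb5, the sialomucin gene Podxl, and the immunoglobulin-family genes F11r and Alcam. They were taken by symbol from the deposited tables, as a set chosen with earlier results of these data known. All 10 were among the 16456 transcripts of the poly(A) table, and 9 of them, all but Alcam, among the 7820 transcripts of the CLIP table and the 7936 of the footprint table. The cells were the A3-1 line, grown in 20% serum with LIF, in all 8 libraries. LIN28A CLIP-seq, which reads the RNA fragments that UV light has joined to a protein and an antibody has pulled down, was done in cells with no siRNA, with the monoclonal antibodies 35L33G and 2J3 and a polyclonal serum, 1 library each. Poly(A) RNA was sequenced from untreated cells and from cells given siRNA to luciferase (siLuc) or to Lin28a (siLin28a) for 48 h, and ribosome-protected fragments (footprints) from the siLuc and siLin28a cells, 1 library each. The labels list 1 siRNA duplex per target, so each siRNA comparison rests on 1 duplex, 1 cell line and 1 library per condition.

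Adhesion receptors hold cells to each other and to the matrix. Cadherins bind the same cadherin on the next cell and anchor to actin through catenins, while integrins are pairs of an alpha and a beta subunit that bind matrix proteins outside the cell and talin and kindlin inside it. All of these receptors are made on ribosomes at the endoplasmic reticulum (ER) and travel through the Golgi to the surface. Mouse embryonic stem cells grow as compact colonies held by E-cadherin, and EPCAM is a common surface marker of them. LIN28A is an RNA-binding protein of such cells that blocks let-7 maturation and also binds many mRNAs.

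The duplex listed for siLin28a is shown because the siLin28a libraries are defined by it. Its strands are given without their overhangs, with bases 2 to 8, the seed of an siRNA strand, in capitals. Lin28a lies on mouse chromosome 4, and which strand pairs with its mRNA was not examined here.
siLin28a, first strand listed: aUGUUCUUcccuuuuggcc
siLin28a, second strand listed: gGCCAAAAgggaagaacau

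Lin28a mRNA was at 465 CPM (counts scaled to a common library total) in untreated cells, 354 with siLuc and 118 with siLin28a. With siLin28a 33.4% of the siLuc mRNA and 25.7% of the siLuc footprints were left. Library totals ran from 5980673 (footprints, siLin28a) to 9605641 counts (poly(A), siLin28a). All 10 stem cell markers were present, summing to between 5611 and 6448 CPM per library. Fibroblast markers were near 0 apart from Thy1, and the 4 of 8 listed in the table summed to 12.4 to 26.9 CPM. The 5 endoderm markers in the table (of 7) summed to 1.51 to 3.08 CPM, with 1 at 0 in untreated cells and 1 in siLuc. The 8 mesenchymal and early mesoderm markers summed to 29.3 CPM in untreated cells, 52.2 with siLuc and 60.5 with siLin28a, and the 4 neural markers in the table (of 5) to 52.3, 58.1 and 76.8 CPM; their part in the results was not tested.

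The first question is how strongly each gene was expressed. Levels are the authors' deposited RPKM, a count divided by exon length and library size, so that genes can be compared. Epcam, a single-pass glycoprotein of epithelial and stem cells, was highest at 191 RPKM (95% counting interval 185 to 198) before any siRNA, 187 with siLuc and 196 with siLin28a. Cdh1, the adherens junction cadherin, followed at 115 (112 to 119), 100.2 and 103 RPKM. F11r, which encodes the junctional adhesion molecule JAM-A of tight junctions, stood at 57.3, 37.7 and 45.3 RPKM in the same order of libraries. Epcam and Cdh1 were thus among the most abundant transcripts of these cells, at percentiles 98.4 and 96.2 of the untreated library.

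Of the integrin subunits, Itga6, the alpha subunit of laminin receptors, was highest at 41.2 RPKM in untreated cells, 48.0 with siLuc and 54.2 with siLin28a. Itgb1, the beta subunit that pairs with most alpha subunits, was at 20.7, 25.1 and 21.2 RPKM. Itgb5, a beta subunit that pairs with the alpha-V subunit, was at 19.5, 17.1 and 21.5 RPKM. The untreated intervals of Itgb1 (19.3 to 22.2) and Itgb5 (17.9 to 21.1) overlapped. Itga5, the alpha subunit of the classical fibronectin receptor, was at 12.4, 14.2 and 16.0 RPKM. Podxl, a heavily glycosylated sialomucin of the free cell surface, was at 5.47, 7.78 and 9.55 RPKM, and Itgav, the alpha-V subunit, at 3.90, 5.86 and 8.94 RPKM. The other neighbours in the untreated order did not overlap in counting intervals, which leave out the spread between cultures.

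Alcam, an immunoglobulin-family adhesion molecule of other tissues, was nearly absent, with 2 counts in untreated cells, 1 with siLuc and 15 with siLin28a. The siLin28a level was 0.315 RPKM, and the siLin28a to siLuc ratio was 11.7 (exact 95% counting interval 1.80 to 491). With so few counts the ratio is known only within that interval. Alcam is left out of the counts that follow.

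**Figure D1:**
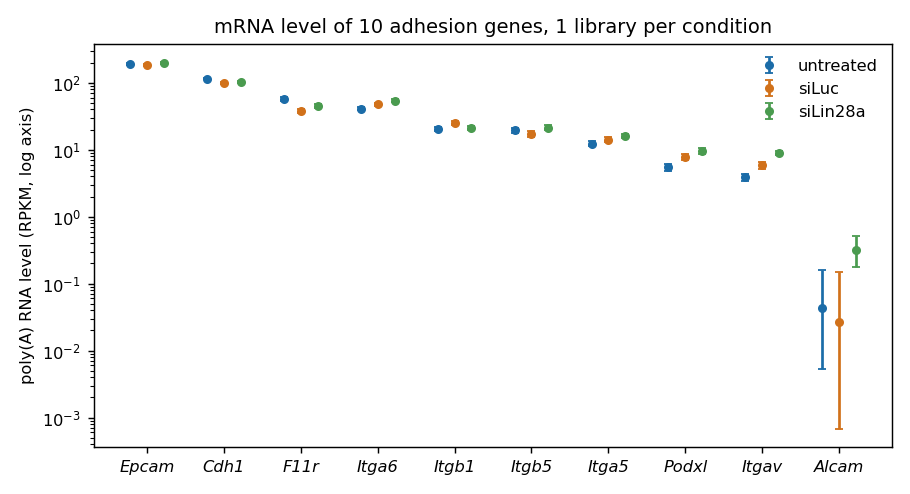
Poly(A) RNA level in RPKM (log axis) of the 10 adhesion genes in untreated, siLuc and siLin28a cells, 1 library each; bars are 95% Poisson counting intervals. Epcam and Cdh1 lie above 100 RPKM in all 3 libraries and Alcam below 0.4 RPKM.

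The second question is how far the adhesion mRNAs were over-represented in LIN28A CLIP against untreated poly(A) RNA. All 9 measured genes were enriched with each of the antibodies and by edgeR's quasi-likelihood test (Benjamini-Hochberg adjusted p from 4.8e-15 for Cdh1 to 0.00447 for Itga5). Of all 7820 transcripts 34.6% were called enriched and 33.3% depleted. The median log2 enrichment of the 9 genes was 1.29, against −0.03 for all transcripts, with a range from 0.72 (Itga5) to 2.92 (Itgav). With libraries scaled by total counts the median of all transcripts moved to −0.40 and the calls of the table to 25.4% enriched and 46.1% depleted. Under that scaling 8 of the 9 genes stayed called, and Itga5 did not, at 0.35 (adjusted p = 0.126, edgeR). The p-values rest on the spread among 3 antibodies, which the labels do not tie to separate cultures, and on 1 input library assumed to vary like them. No control immunoprecipitation is analysed here, so binding by LIN28A and other differences between these kinds of library cannot be told apart.

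The alpha-V subunit gene Itgav (NM_008402, mm9 chromosome 2, 83564554 to 83647073) was the most enriched. It had 1192 CLIP counts with 35L33G, 1427 with 2J3 and 1356 with the polyclonal serum, against 255 untreated poly(A) counts. Its log2 enrichment of 2.92 ± 0.12 (SD, n = 3), or 7.57-fold, ranked it 97th of 7820 transcripts. It had the lowest untreated mRNA level of the 9 genes, and the untreated count is the divisor of this ratio. The beta subunit gene Itgb1 (NM_010578, chromosome 8, 131209554 to 131257479) was next, with 3071, 3331 and 2991 CLIP counts in the same order of antibodies against 806 poly(A) counts. Its log2 enrichment was 2.50 ± 0.09 (SD, n = 3), at percentile 97.3. The third integrin gene, Itga6 (NM_008397, chromosome 2, 71625140 to 71694815), had 4584, 4706 and 5051 CLIP counts against 1606, a log2 enrichment of 2.12 ± 0.05 (SD, n = 3).

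Cdh1 (NM_009864, chromosome 8, 109127268 to 109194146) gave the most CLIP reads of the 9, with 13033, 12876 and 12514 counts against 4717. Its log2 enrichment was 1.99 ± 0.05 (SD, n = 3), at 2.03, 2.00 and 1.93 by antibody. The 3 antibodies lay close together for this gene, which was enriched 3.97-fold.

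Epcam (NM_008532, chromosome 17, 88035319 to 88050467) had 5982, 6127 and 5956 CLIP counts against 3655, a log2 enrichment of 1.27 ± 0.03 (SD, n = 3). Itgb5 (NM_001145884, chromosome 16, 33829751 to 33949424) had 859, 1017 and 1103 against 592, or 1.29 ± 0.16. Podxl (NM_013723, chromosome 6, 31469493 to 31513937) had 488, 401 and 435 against 270, or 1.25 ± 0.15. These 3 genes, whose mRNA levels span from 5.47 to 191 RPKM, differed from one another by less than the spread of Itgb5 or Podxl between antibodies.

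The least enriched were F11r (NM_172647, chromosome 1, 173367692 to 173394724), with 1518, 1893 and 1537 CLIP counts against 1318, and Itga5 (NM_010577, chromosome 15, 103174718 to 103197179), with 527, 639 and 530 against 500. Their log2 enrichments were 0.86 ± 0.18 and 0.72 ± 0.16 (SD, n = 3). In both, 2J3 gave the highest value (1.07 and 0.91), while 35L33G and the polyclonal serum lay close together (0.77 and 0.75 for F11r, 0.64 and 0.61 for Itga5). For Podxl 35L33G was highest and for Itgb5 the polyclonal serum, so no antibody stood apart in the same direction for all genes.

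**Figure D2:**
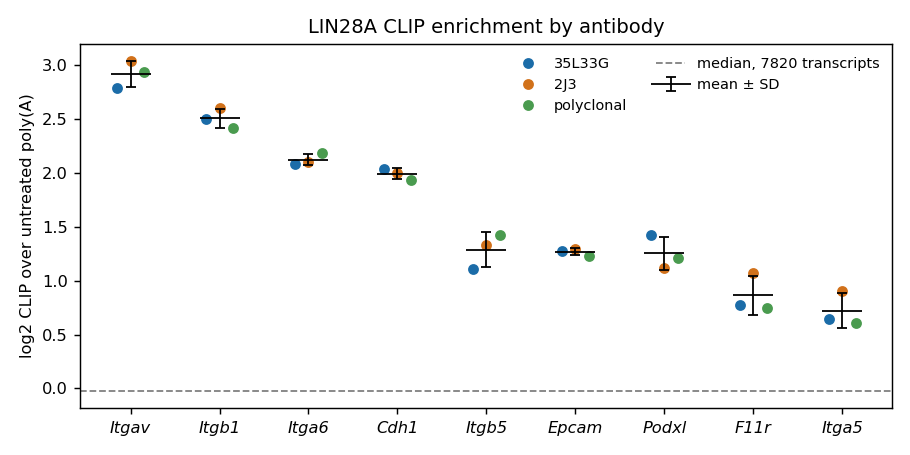
Log2 enrichment of the 9 measured adhesion genes in LIN28A CLIP over untreated poly(A) RNA, by antibody, with the mean and SD over the 3 antibodies; the dashed line is the median of 7820 transcripts. Every point lies above the line, from 0.61 (Itga5, polyclonal) to 3.03 (Itgav, 2J3).

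The third question is where in these mRNAs the CLIP reads lay. The share of coding reads among coding and 3′ UTR reads had a median of 57.4% over the 9 genes, against 69.5% over 7354 coding transcripts (quartiles 44.6% and 88.0%). The genes differed far more from one another than the antibodies did. Itgb5 and Itga5 were read almost wholly in the coding sequence, at 92.7% ± 1.71 and 90.02% ± 3.595 (SD, n = 3). Itga6 was at 82.4% ± 1.21 and Itgb1 at 78.1% ± 2.27. Epcam was at 57.4% ± 1.75, Itgav at 50.4% ± 3.34 and Cdh1 at 50.1% ± 1.29. F11r was at 31.2% ± 4.72 and Podxl at 19.4% ± 1.81. Itgb5, Itga5, Itga6 and Itgb1 thus lay above the median transcript, and Itgav and the 4 non-integrin genes below it.

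Per base, Podxl reads were sparser in the coding sequence than in the rest of the transcript (log2 ratio −0.72 ± 0.16, SD, n = 3), and so were those of Cdh1 (−0.59 ± 0.07) and F11r (−0.42 ± 0.32). The same ratio was 2.17 ± 0.37 for Itgb5, 1.78 ± 0.66 for Itga5 and 1.40 ± 0.20 for Itgb1, and the median over 7261 transcripts was 0.74. Epcam (0.65 ± 0.10), Itga6 (0.51 ± 0.12) and Itgav (0.34 ± 0.19) were closer to that median.

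The authors' deposited table also sets each region against poly(A) reads of the same region, as a log2 ratio with no depth factor. In the authors' deposited table Cdh1 was at 1.05 to 1.17 in the coding sequence and 2.38 to 2.43 in the 3′ UTR, over the antibodies. For Epcam the authors' deposited ratios were 0.53 to 0.66 and 1.21 to 1.28. For F11r they were −0.87 to −0.19 in the coding sequence and 1.12 to 1.46 in the 3′ UTR in the authors' deposited table. With no depth factor, the sign of such a ratio alone does not mark enrichment or depletion. For the integrin genes with a value in both regions, the authors' deposited ratios of coding sequence and 3′ UTR were 1.98 to 2.18 and 2.15 to 2.40 for Itgb1, 1.62 to 1.73 and 1.68 to 1.98 for Itga6, and 2.21 to 2.29 and 2.51 to 2.96 for Itgav. The medians of the authors' deposited table lay between −0.71 and −0.67 for coding sequence and between −0.07 and 0.05 for 3′ UTRs, over the transcripts with a value. The authors' deposited 3′ UTR ratio of Itga5 and Itgb5 and the coding ratio of Podxl are listed at 0, as the table does where both counts are below 200, and are not values.

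**Figure D3:**
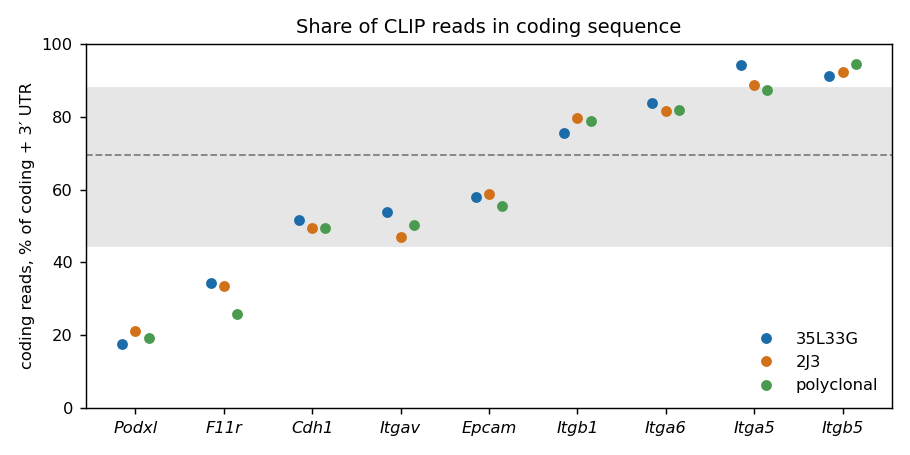
Share of CLIP reads in coding sequence, in percent of coding plus 3′ UTR reads, for the 9 adhesion genes and each antibody; the dashed line and grey band are the median and quartiles of 7354 transcripts. With all 3 antibodies Podxl and F11r lie below the band and Itgb5 above it.

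The fourth question is how the mRNAs differed after Lin28a siRNA. Of the 9 genes 1, Itgav, was at least 1.5-fold higher with siLin28a than with siLuc and 0 were as much lower. The background was 7.62% of 8859 transcripts higher and 4.5% lower. The median log2 ratio of the 9 was 0.18, against 0.00 for all. With 1 library per condition no test is possible, intervals cover counting error only, and fewer cells with a transcript cannot be told apart from less RNA per cell.

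Itgav had 255 poly(A) counts in untreated cells, 309 with siLuc and 606 with siLin28a. Its log2 ratio of siLin28a to siLuc was 0.61 (95% counting interval 0.41 to 0.81), and the footprint table's tally, which takes fewer reads of this gene, gave 0.57 (0.33 to 0.81), just under 1.5-fold. The control siRNA already differed from untreated cells, by 0.59 (0.35 to 0.83), so the siLuc library lay between the other two. Podxl had the same order, with 270, 310 and 489 counts and log2 ratios of 0.29 (0.09 to 0.50) for siLin28a to siLuc and 0.51 (0.27 to 0.74) for siLuc to untreated.

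Itgb1 was the 1 gene of the 9 with less mRNA in siLin28a than in siLuc, at −0.24 (−0.38 to −0.10), with 806, 787 and 856 counts in untreated, siLuc and siLin28a libraries of different size. Against untreated cells it was at 0.03 (−0.10 to 0.17). Cdh1 and Epcam mRNA were close to level at 0.04 (−0.02 to 0.11) and 0.07 (0.00 to 0.14). Itga5 was at 0.17, Itga6 at 0.18, F11r at 0.27 and Itgb5 at 0.33.

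F11r had the lowest siLuc to untreated ratio of the 9, at −0.60 (−0.74 to −0.47) for siLuc to untreated, with 1318 counts untreated, 699 with siLuc and 1080 with siLin28a. In that comparison 1 of the 9 genes was at least 1.5-fold lower (F11r) and 1 higher (Itgav), where 4.46% and 3.31% of 8743 transcripts were. For siLin28a to untreated, Itgav (1.195) and Podxl (0.80) were past 1.5-fold, 2 of 9 where 7.43% of 9056 transcripts were, and 0 of 9 were as much lower, where 5.07% were. These comparisons share libraries and are not independent of one another.

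The fifth question is how ribosome footprints differed. All 9 genes had at least 1.5-fold more footprints with siLin28a than with siLuc, where 14.4% of 6323 transcripts were as much higher and 26.9% lower. With TMM scaling, which moves the median of all transcripts from −0.21 to 0.01, these shares were 21.1% and 15.6%, and all 9 genes were again past 1.5-fold. The log2 ratios ran from 0.70 to 1.27, with a median of 0.96, against −0.21 for all transcripts.

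Cdh1 footprints numbered 6982 in siLuc cells (922 CPM) and 10083 in siLin28a cells (1686 CPM), a log2 ratio of 0.87 (0.83 to 0.91). For Epcam there were 4082 and 5751 footprints, or 539 and 962 CPM, a log2 ratio of 0.83 (0.78 to 0.89). These 2 genes, the most abundant in mRNA of the 9 measured here, thus stood at 1.83-fold and 1.78-fold in footprints. Their mRNA was at 1.03-fold and 1.052-fold of siLuc in the poly(A) table and at 1.08-fold and 1.073-fold in the tally of the footprint table.

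Itgav again had the highest ratio, with 679 and 1295 footprints and a log2 ratio of 1.27 (1.14 to 1.40). Itga6 had 3790 and 5820 footprints, a ratio of 0.96 (0.90 to 1.02), and Itga5 had 1048 and 1466, a ratio of 0.82 (0.71 to 0.94). Each integrin alpha subunit among the 9 genes was therefore between 1.77-fold and 2.41-fold higher. The beta subunit gene Itgb1 had 2112 and 2713 footprints, a ratio of 0.70 (0.62 to 0.78), the lowest of the 9, and Itgb5 had 355 and 570, a ratio of 1.02 (0.83 to 1.21). Podxl had 953 and 1513 footprints, at 1.01 (0.89 to 1.12), and F11r had 2002 and 3093, at 0.97 (0.89 to 1.05).

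The sixth question is the change of ribosome density, taken as the log2 footprint ratio less the log2 mRNA ratio from one table and centred on the median of 7799 transcripts. All 9 genes were at least 1.5-fold higher in density with siLin28a, where 18.6% of transcripts were as much higher and 17.0% lower. Their log2 changes ran from 0.71 to 1.26 with a median of 0.95, and the 90th percentile of all transcripts was 0.83. By total counts, with no centring, the median transcript lay at −0.22, and 8 of the 9 genes were past 1.5-fold.

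Itgb1 had the highest value, 1.26 (95% counting interval 1.08 to 1.43), or 2.39-fold, at percentile 98.2, with footprints higher and mRNA lower (−0.34 in the tally of the footprint table). Itga5 and Itga6 were both at 1.00 (0.78 to 1.23 and 0.89 to 1.12), Cdh1 at 0.97 (0.89 to 1.06) and Epcam at 0.95 (0.85 to 1.05). Itgav was at 0.92 (0.64 to 1.20), below its footprint ratio, with mRNA at 0.57 in the same tally. Podxl was at 0.90 (0.54 to 1.27), F11r at 0.80 (0.60 to 1.00) and Itgb5 at 0.71 (0.45 to 0.97). With this tally the intervals of Itgb1 and Itgb5 did not overlap, while those of the 7 genes between them all overlapped one another. The order depended on the tally of poly(A) reads. With the poly(A) table's counts Itgb1 was still highest, at 1.17. Itgb5 was then at 0.92, above Itgav (0.89) and Itga5 (0.88), so its lowest place did not hold.

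**Figure D4:**
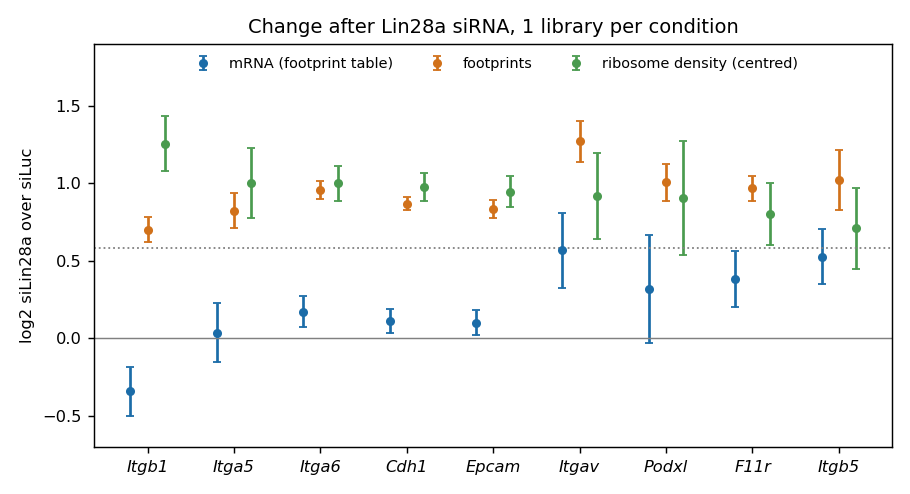
Log2 ratio of siLin28a to siLuc for mRNA (tally of the footprint table), footprints and centred ribosome density of the 9 adhesion genes, 1 library per condition; bars are 95% counting intervals and the dotted line marks 1.5-fold. Footprint and density values of all 9 genes lie above the dotted line, and Itgb1 mRNA lies below 0.

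In siLuc cells, the parallel control, footprints per poly(A) read were high for most of these genes. The centred log2 ratio had a median of 1.83 over the 9. It was 3.35 for Podxl, 2.57 for F11r, 1.93 for Itgb1, 1.92 for Itgav, 1.83 for Cdh1, 1.67 for Itga5, 1.62 for Itga6 and 1.20 for Epcam. Itgb5, at 0.06 (−0.15 to 0.26), was the exception, near the median of 7495 transcripts. How far Podxl and F11r stood above the rest depended on the tally of poly(A) reads: the siLuc poly(A) count of the footprint table over that of the poly(A) table was 0.345 for Podxl and 0.555 for F11r, against a median of 0.799. With the poly(A) table's counts they were still the highest, Podxl at 2.24 and F11r at 2.14, next to Itgb1 at 2.04 and Itga6 at 1.95. Neither count is divided by length. High values were not particular to the 9 genes. With the footprint table's counts the median was 1.98 over 41 other adhesion membrane genes and 2.38 over 15 integrin ligands, both described below. It was −0.56 over 44 cytoplasmic partners.

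The remaining adhesion genes were read from lists chosen with earlier results of these data known. Other cadherins, integrins, nectins, junction proteins, tetraspanins and related membrane proteins numbered 108, of which 42 had CLIP values. Of these 32 were enriched and 1 was depleted by edgeR's quasi-likelihood test (median log2 enrichment 1.29, against −0.03 for all transcripts), where 34.6% and 33.3% of all transcripts were. In ribosome density 34 of 42 were at least 1.5-fold higher with siLin28a and 0 lower, with a median of 0.76, where 18.6% and 17.0% of all transcripts were. The nectin gene Pvrl3 (3.32 ± 0.08 in CLIP, density 1.14) and the coxsackievirus and adenovirus receptor gene Cxadr (2.51 ± 0.06, density 0.98) were the most enriched of the 28 immunoglobulin, junction and tetraspanin genes with at least 200 untreated counts. The claudin gene Cldn6 was depleted in CLIP (−0.60 ± 0.19, adjusted p = 0.029, edgeR; SD, n = 3), and the tetraspanin gene Tspan4, not called, was at −0.67 ± 0.21. Both had a centred density change past 1.5-fold, 0.73 and 0.68, with log2 footprint ratios of 0.33 and 0.28, under 1.5-fold. Centring matters here, since the median transcript lay at −0.22 by total counts, and uncentred values of the list genes are not given.

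Among the cadherins, 6 of 7 were enriched in CLIP, led by the giant cadherin gene Fat1 (2.80 ± 0.01) and the P-cadherin gene Cdh3 (2.07 ± 0.06), with Celsr2 at 0.90 ± 0.14 and Celsr3, not called, at −0.93 ± 0.41 (SD, n = 3). Of the other integrin subunits 3 were measured in CLIP, 4 in density and 5 in mRNA. In CLIP, Itga3 at 1.28 ± 0.08 and Itga9 at 1.27 ± 0.02 were enriched and the leukocyte subunit gene Itgb7, not called, was at −0.39 ± 0.42 (SD, n = 3). These 3 genes were past 1.5-fold higher in density. The 2 without CLIP values, named after their values were seen, were Itgal, with a density change of 0.08, and Itgb3, with 90 poly(A) counts untreated, 57 with siLuc and 186 with siLin28a. The tetraspanin gene Cd9, whose protein binds integrins, was at 2.16 ± 0.16 with a density change of 0.84. The tetraspanin gene Cd151, not called, was at 0.12 ± 0.28 with a density change of 0.80. Cldn7, whose protein binds EPCAM, was measured in the poly(A) table alone, with 145 counts untreated, 74 with siLuc and 172 with siLin28a.

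Matrix ligands of the integrins were mostly higher in density too. Of 15 measured in CLIP 10 were enriched and 1 depleted (median 0.91), against 34.6% and 33.3% of all transcripts. In density 12 of 15 were past 1.5-fold higher and 0 lower (median 0.76), against 18.6% and 17.0%. Fn1, the fibronectin gene, was at 0.98 ± 0.02 in CLIP and 0.72 in density, and the laminin genes Lama1 and Lamc1 at 1.80 ± 0.05 and 1.40 ± 0.03 in CLIP and 0.72 and 0.91 in density. Nid1, which encodes the basement membrane linker nidogen-1, was the most enriched in CLIP at 2.24 ± 0.04. Lama5 was depleted in CLIP at −0.79 ± 0.08 and Mfge8, not called, was at 0.01 ± 0.11 (SD, n = 3), with density changes of 0.73 and 1.05. The vitronectin gene Vtn had 1 count in untreated cells and 0 in the others.

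The cytoplasmic partners of the same receptors mostly lay below the median transcript in density. Of 44 such genes with CLIP values 19 were enriched, 18 depleted and 7 not called (median 0.17). Both called shares were larger than the 34.6% and 33.3% of all transcripts. In ribosome density 0 of 44 were at least 1.5-fold higher and 18 were as much lower, with a median of −0.44, against 18.6% and 17.0% of all transcripts. The beta-catenin gene Ctnnb1, whose protein binds the E-cadherin tail, was enriched at 2.195 ± 0.17 in CLIP, above Cdh1 itself, with a density change of −0.05. The alpha-catenin gene Ctnna1 was at −0.21 ± 0.09 (adjusted p = 0.037, edgeR; SD, n = 3) with a density change of −1.175, and the p120-catenin gene Ctnnd1 at −0.52 ± 0.12 with −0.94. Ctnna1 and Ctnnd1 thus lay below the median transcript in density and Ctnnb1 close to it. Cdh1 lay above the 90th percentile of all transcripts.

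For the integrin tails, the talin gene Tln1 was depleted at −1.27 ± 0.19 with a density change of −0.79. The kindlin-2 gene Fermt2, not called, was at 0.03 ± 0.09 with −0.71, and Ilk, not called, at −0.62 ± 0.29 with −0.04. Vcl, which encodes the actin linker vinculin, was enriched at 1.31 ± 0.06 with a density change of −0.03. At the Podxl tail, Ezr, the ezrin gene, was enriched at 0.97 ± 0.06 with −0.89, and the scaffold genes Slc9a3r1 and Slc9a3r2 were depleted at −1.98 ± 0.10 and −1.77 ± 0.66 (SD, n = 3) with −0.72 and −0.69. Tjp1, which encodes the tight junction scaffold ZO-1 that binds JAM-A, was enriched at 0.32 ± 0.08 with −0.73. The ezrin relative Rdx was enriched at 2.01 ± 0.04, while Tjp3 and Src were the lowest of the 43 with at least 200 untreated counts at −2.38 ± 0.40 and −2.09 ± 0.65.

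The CLIP call and the density change were then set side by side for transcripts in both tables. Of all 7111, 2285 were enriched in CLIP, and 37.7% of those were at least 1.5-fold higher in density and 5.56% as much lower. Of 18 CLIP-enriched cytoplasmic partners 0 were, and 3 were as much lower. Of 29 CLIP-enriched membrane genes outside the 9 members 25 were higher, and so were 7 of the 9 membrane genes with no CLIP call and the 1 that was depleted. Of all transcripts with no call 14.7% were higher, and of all depleted ones 4.29%. These are counts over genes, which are not replicates, and no list was tested.

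**Figure D5:**
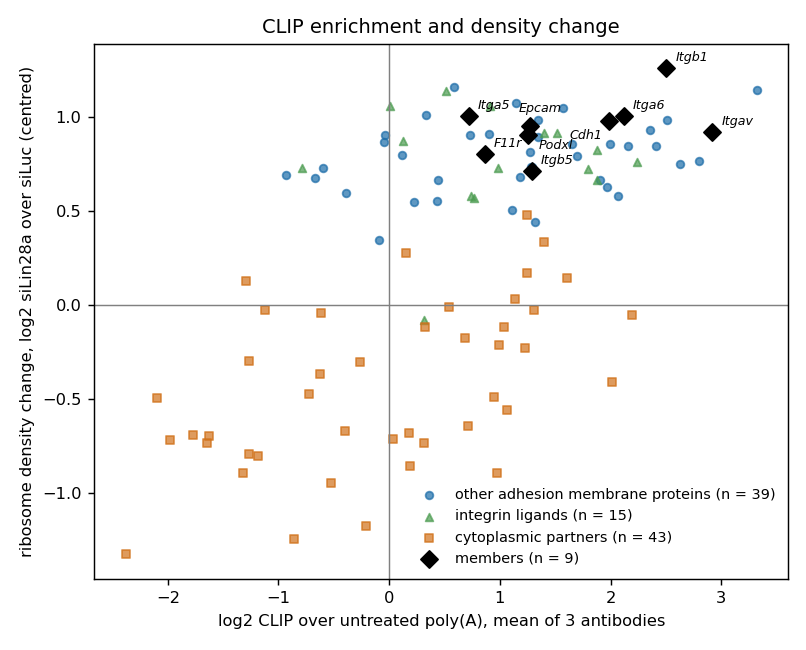
Log2 CLIP enrichment (mean of 3 antibodies) against the centred log2 change of ribosome density with siLin28a for the 9 members (named), 39 other adhesion membrane genes, 15 integrin ligands and 43 cytoplasmic partners in both tables. All 39 membrane genes lie above 0 in density, from 0.35 to 1.16, and 7 of the 43 cytoplasmic partners do.

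The transcripts most like Cdh1 over the 8 libraries were found by the distance of their log2 CPM, each centred on its own mean, among 6888 transcripts with at least 200 untreated counts. They were Serinc3 at a distance of 0.32, Ahnak at 0.40, Itfg1 at 0.42, Lpar1 at 0.43 and Sypl at 0.43, where the median distance was 3.78. Of the other members measured, Itgb1 was nearest at 0.69 (rank 53) and Podxl farthest at 2.46 (rank 1094). Distances of the list genes are not given.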

How the data were processed

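Deposited whole-number counts per RefSeq transcript and the authors' RPKM were used as they are. The mm9 build, GSNAP and bedtools are named, without roles, per the submitters' processing notes, and the counting rule is not given in the sources used here. RPKM in the deposited table equals counts scaled by exon length and total counts. The authors' deposited log2 ratios equal log2 of CLIP counts plus 1 over poly(A) counts plus 1, listed at 0 where both counts are below 200. Every transcript of the footprint table has 80 or more poly(A) counts under both siRNAs. In the CLIP table, 7 columns of per-sample counts were not used, since they name no condition or, for 5′ UTRs, mostly repeat exon counts.

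CLIP was tested with edgeR 4.0.16 in R 4.3.3 (quasi-likelihood test, TMM, filterByExpr, Benjamini-Hochberg adjustment over 7820 transcripts, threshold 0.05), with DESeq2 1.42.0 as an alternative. Per-antibody log2 enrichment adds 0.5 counts. siRNA changes are log2 CPM ratios with the same addition, scaled by total counts, for transcripts with a sum of 200 counts or more (density: 50 in each assay), called at 1.5-fold. Intervals of ratios are normal on the log scale (Alcam: exact Clopper-Pearson), those of levels are exact Poisson, and all cover counting error only. Named partners were the direct partners of the members plus the 2 highest and 2 lowest of each list in CLIP among genes with at least 200 untreated counts; 1 gene under this rule is not reported here. Members and lists were chosen with earlier results of these data known. Protein sequences are not used here.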

Additional observations from a re-analysis of the deposited data

How the results depend on the processing

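The count of enriched adhesion genes was 9 of 9 with DESeq2, with its size factors in edgeR and without each antibody in turn (9 to 9). It was 8 with total counts, where Itga5 lost its call. The filter on low counts removed none of the 7820 transcripts, so leaving it out repeats the same fit. The median coding share was 56.7% to 58.3% without each antibody and 57.3% as a share of exon counts. At 2-fold in place of 1.5-fold, 3 of 9 genes were higher in footprints and 3 in density. In density Itga5 and Itga6, at log2 changes of 1.002 and 1.001, lay at that threshold. Both were under it with a pseudocount of 5 counts (0.98 each) or without centring (0.79 each). Itgb1 stayed past it, at 1.24 and 1.04. At 2-fold the counts of genes with higher mRNA were 0 for siLin28a to siLuc, 0 for siLuc to untreated and 1 for siLin28a to untreated. For siLin28a to siLuc this count was 0 with the footprint table's tally and 2 with no minimum on counts, which lets Alcam in. For siLuc to untreated it was 0 with a pseudocount of 5 counts, since Itgav lies at the threshold, while F11r, at −0.60, was still past 1.5-fold lower. The median basal density was 1.58 with at least 200 counts in each assay, where Podxl, with 107 poly(A) counts, drops out and the centring differs, and 1.80 with the poly(A) table's counts. No direction of a called value of the 9 genes reversed. The partner and list genes, and the counts over the lists, are given at the main settings only. Using the poly(A) column inside the CLIP table as the input was not run, since it names no condition. No paired analysis was possible because the labels give no replicate numbers and the siRNA groups have 1 library each. Depth limits Alcam, with 1 to 15 counts, and the Podxl density, with 107 poly(A) counts in siLuc.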
